A study of Mus musculus with 4 samples.

Results

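Wnt signalling genes were examined in RNA-seq profiles of Tomato-positive cells sorted from regenerated olfactory epithelium. The members were the gene symbols of Wnt ligands, Frizzled receptors (Fzd), the co-receptors Lrp5 and Lrp6, secreted inhibitors of the Sfrp and Dkk families, R-spondins (Rspo), the ubiquitin ligases Znrf3 and Rnf43, Axin1, Axin2 and the Tcf/Lef transcription factors. They were taken by symbol and not by their measured values. Of 23337 listed gene symbols, 51 were members. CPM, read counts scaled to the library total, were above 1 in at least 2 samples for 38 of the 51 members and for 15438 of all genes, and these genes were tested. The CPM and RPKM levels given below were also scaled by a normalization factor for each library (TMM).

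All mice carried K5Cre, which drives Cre recombinase from the Keratin 5 promoter and so acts in horizontal basal cells, the reserve stem cells of this epithelium, together with the R26 Ai9 reporter that turns on the red fluorescent protein tdTomato after recombination. The 2 control samples came from Lmnb1+/- cells, in which 1 copy of the lamin B1 gene carried the floxed exon that Cre removes, and the 2 mutant samples came from Lmnb1-/- cells, in which both copies carried it. All 4 mice were adults of mixed background that had received methimazole, a drug that destroys the epithelium, at 50 mg/kg and had recovered for 4 weeks, and each sample was 1 mouse. Samples formed 2 experimental groups, here numbered 1 and 2, each with 1 control and 1 mutant from the same litter. The experimental groups differed in treatment, parents, age and sex, and the age of each mouse is not given in the labels. Tomato-positive cells include horizontal basal cells and all cell types that they give rise to. Each value is thus a mean over a mixed population, and fewer cells of a type cannot be told apart from less RNA per cell. Markers of stromal cells, leukocytes, ensheathing glia and endothelium were also read in the sorted samples, such as Col1a1 at 22.6 to 280 CPM. Values of members can therefore not be assigned to the horizontal basal lineage alone.

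Wnt ligands are secreted, lipid-modified proteins that bind Frizzled receptors and, for the beta-catenin branch, the co-receptors Lrp5 and Lrp6. Receptor engagement recruits Axin and stops the destruction of beta-catenin, which then activates target genes together with Tcf/Lef factors. Sfrp proteins bind Wnt ligands outside the cell, several Dkk proteins block the co-receptors, and R-spondins protect Frizzled receptors from the ligases Znrf3 and Rnf43. In the olfactory epithelium the pathway is known for its part in the proliferation and fate choice of basal cells.

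Between 14833396 and 23704638 reads per sample were assigned to genes, so that 3 counts, the smallest number taken as detected, corresponded to 0.130 to 0.203 CPM. Every pair of samples differed by more than sampling noise (chi-square per degree of freedom of 41.9 to 251), and all were kept as separate samples. Mutant 1 stood apart, with 39.4% of uniquely aligned reads on no counted gene feature, against 22.1% to 24.9% in the other samples. This HTSeq tally can hold reads in introns as well as between genes, and the 2 cannot be separated here. Mutant 1 also had 1603 genes at 0 counts against 5173 to 6053. Multiply aligned reads separated the experimental groups, at 62.7% to 68.3% of alignments in group 1 and 25.9% to 26.3% in group 2. Lmnb1, the targeted gene, was at 20.6 and 18.8 CPM in controls 1 and 2 and at 14.1 and 10.1 CPM in mutants 1 and 2. Both mutants lay below both controls, but the log2 fold change of -0.72 (SE 0.31) did not pass the threshold (edgeR likelihood-ratio test, adjusted p = 0.195). In the paper, most Tomato-positive mutant cells were negative for lamin B1 by antibody staining. PCR of cDNA from sorted mutant cells there showed Lmnb1 transcript to be depleted.

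The sequences just upstream of Wnt4 and Axin2 are shown because Wnt4 was the member that passed the threshold for genotype and Axin2 is the classical feedback target of the beta-catenin branch. The windows are on the plus strand of GRCm38.p6, at chr4:137277385-137277488 before Wnt4 and at chr11:108920099-108920348 before Axin2. They were taken from RefSeq promoter windows, and that of Wnt4 ends where the first annotated transcript begins. Capitals mark the GC box GGGCGG or its reverse complement CCGCCC.
Wnt4: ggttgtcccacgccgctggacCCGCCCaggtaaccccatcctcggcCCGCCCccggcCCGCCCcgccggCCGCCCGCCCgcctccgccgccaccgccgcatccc
Axin2: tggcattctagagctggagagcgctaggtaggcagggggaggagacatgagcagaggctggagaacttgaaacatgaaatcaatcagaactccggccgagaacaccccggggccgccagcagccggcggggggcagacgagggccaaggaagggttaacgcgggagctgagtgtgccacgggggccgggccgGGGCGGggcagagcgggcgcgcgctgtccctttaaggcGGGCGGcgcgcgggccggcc
The Wnt4 window of 104 bases was 83.7% G or C and held 5 GC boxes, of which the last pair of matches overlaps. The Axin2 window of 250 bases was 69.2% G or C and held 2. The Tcf/Lef core CTTTGA, searched on both strands with its reverse complement TCAAAG, was in neither. Over the 250 bases before every start in the RefSeq table, this core was found in 13.8% of 32851 windows and in 5 of 42 windows of the 33 members that matched. GC boxes were found in 32.7% of all windows and in 29 of the 42.

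To compare members with each other, CPM were divided by exon length to give RPKM, a level per length. The most abundant member in these cells was Sfrp1, a secreted Wnt inhibitor, at 34.9 and 48.2 RPKM in controls 1 and 2 and at 50.8 and 66.8 RPKM in mutants 1 and 2, with a mean of 50.2 ± 13.1 (SD, n = 4 samples of both genotypes). Dkk3, a divergent member of the Dickkopf family, followed at 24.1 ± 3.46. Fzd7 (19.3 ± 3.07), Axin1 (18.7 ± 1.51), Wnt4 (14.7 ± 4.80), Fzd1 (12.4 ± 1.26), Fzd3 (9.87 ± 3.89), Lrp6 (8.95 ± 2.96), Fzd6 (8.54 ± 2.13) and Wnt7b (8.17 ± 1.77) came next. Sfrp1 was separated from Dkk3 by more than their summed SDs, whereas each later neighbour among these genes differed from the one before by less than that. Wnt4 and Wnt7b led the ligands, Fzd7 and Fzd1 the receptors, and Lef1 had the lowest level at 0.180 ± 0.0640. With the length of the longest transcript in place of all exons, 9 of the 38 levels moved by more than their SD, by up to 2.40 times for Lef1. Wnt3 was then the lowest at 0.258 and Lrp6 stood at 13.1, above Fzd1, whereas the first 5 genes kept their places. Summed over tested and untested members, ligands stood at 40.4 and 26.0 RPKM in the controls and 52.3 and 39.4 in the mutants, so the genotypes overlapped. With the longest transcript the sums were 44.3 and 30.2 against 57.1 and 44.9 RPKM, which did not overlap. Frizzled receptors summed to 60.2 and 68.5 RPKM in controls and 68.0 and 83.2 in mutants, which also overlapped. Secreted inhibitors summed to 66.8 and 75.3 RPKM in controls and 82.0 and 98.1 in mutants, both mutants being above both controls. These sums rested largely on Sfrp1 and Dkk3, whereas 4 of the 7 tested inhibitors had negative log2 fold changes.

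**Figure D1:**
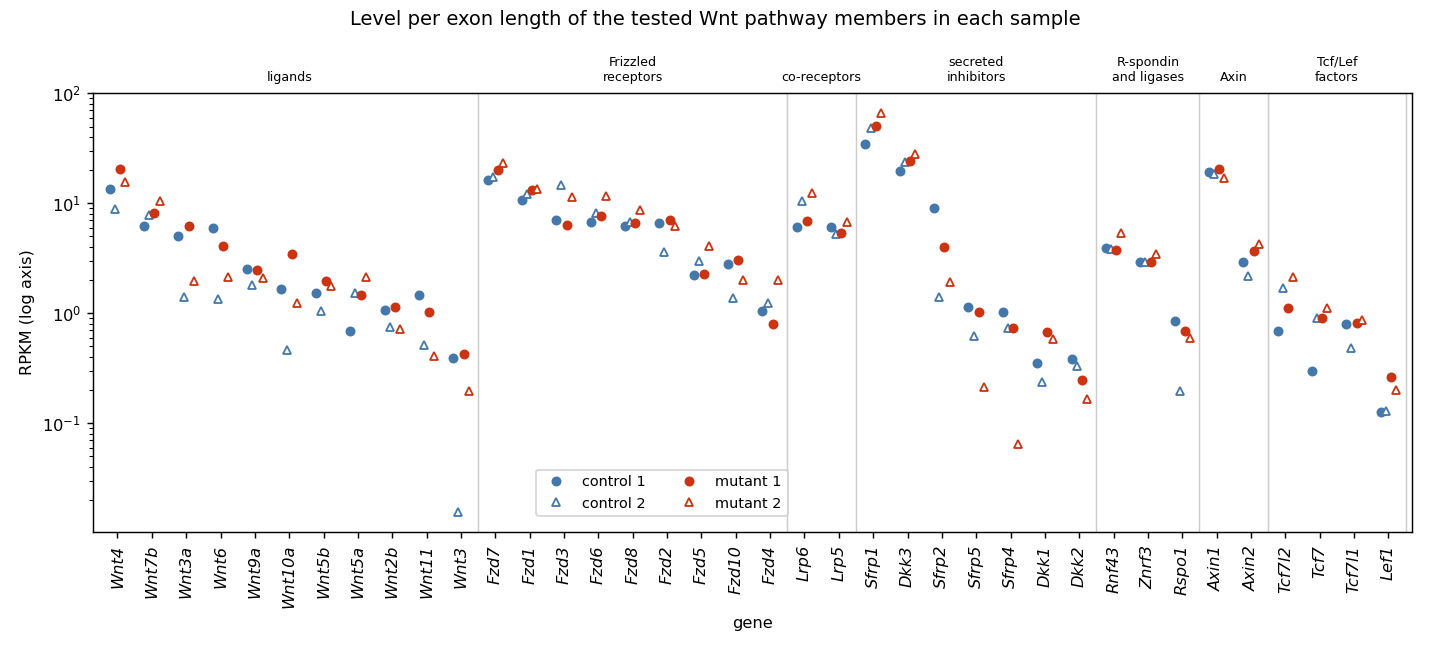
Level of each tested member in RPKM on a log axis, ordered by role, with 1 point per sample (circles, experimental group 1; triangles, experimental group 2; blue, control; red, mutant). Sfrp1, at 34.9 to 66.8 RPKM, lay above all other members in every sample, and the Tcf/Lef factors lay between 0.128 and 2.12.

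The main question was whether members differed between Lmnb1-/- and Lmnb1+/- cells. The ligand Wnt4 rose in mutant cells, and it was the only member past the threshold in either direction in the model with experimental group. Members with adjusted p under 0.05 thus numbered 1 higher and 0 lower, whereas 1.28% of all tested genes were higher and 4.30% lower. At an unadjusted p under 0.05, which takes no account of the number of genes tested, 7 members were higher and 0 lower, against 6.32% and 9.62% of all genes. The 7 were Wnt4, Wnt5a, Wnt7b, Wnt10a, Fzd7, Sfrp1 and Axin2. Members lower by genotype also numbered 0 in the quasi-likelihood test and in DESeq2. Fitted log2 fold changes were positive for 31 of 38 members (81.6%) and for 48.9% of all genes, with a median of 0.30 against -0.01. Both mutants were above both controls in 12 members and below them in 1, against 12.6% and 13.3% of all genes. Among these, Dkk1 was tested only because both mutants exceeded the CPM filter and Dkk2 only because both controls did, so that neither could have been found the other way. Both are also in the counts of signs given here, where the filter largely set their direction as well. Within experimental groups, log2 ratios were positive in both for 23 members (60.5%), compared with 29.8% of all genes, and their median over members was 0.10 in group 1 and 0.44 in group 2. These counts describe members chosen by symbol and are not a test of the pathway.

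**Figure D2:**
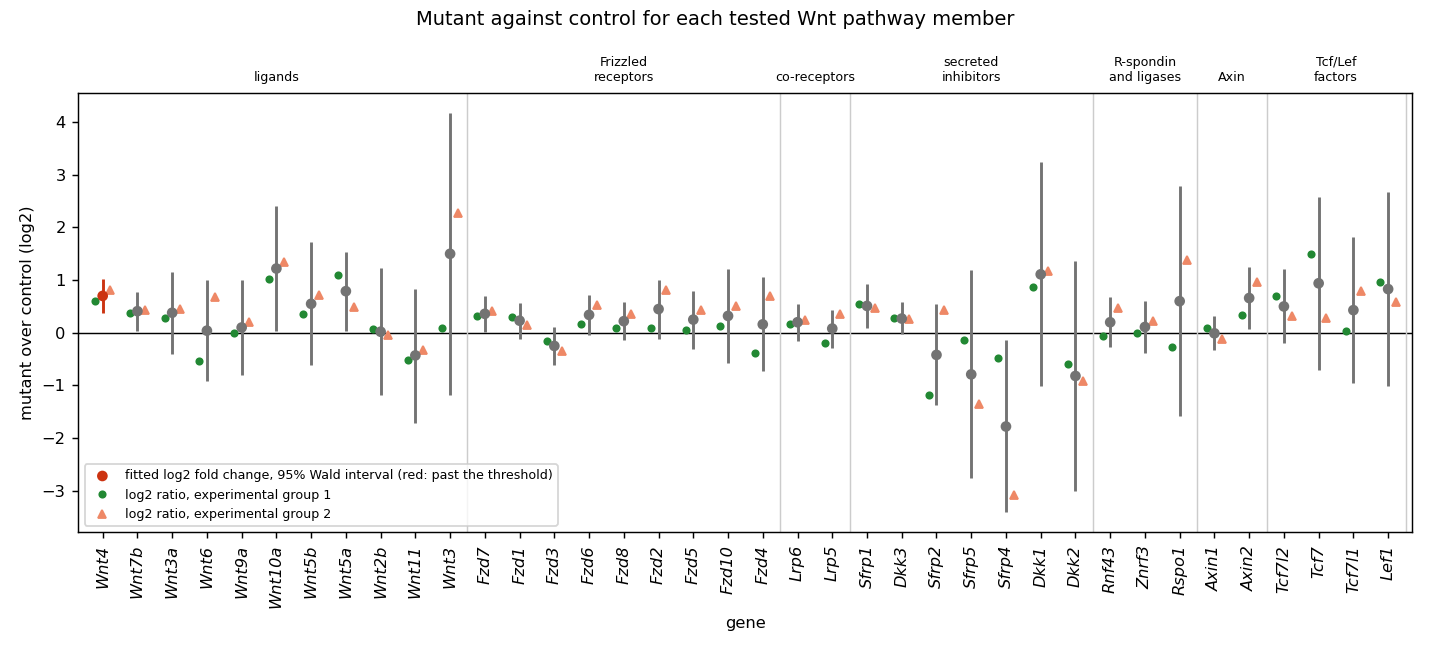
Fitted log2 fold change of mutant over control with its 95% Wald interval for each tested member (large points; red, past the threshold), beside the log2 ratio within experimental group 1 (green circles) and group 2 (orange triangles). Wnt4, at 0.70 with an interval from 0.37 to 1.03, is the red point, and 31 of 38 fitted values lie above 0.

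Wnt4, a ligand that acts in epithelial differentiation and kidney tubule formation, lies on chr4:137277489-137299726 (GRCm38). It was at 56.7 and 37.7 CPM in controls 1 and 2 and at 86.0 and 66.1 CPM in mutants 1 and 2. Both mutants were above both controls, and within each experimental group the mutant was higher. Its log2 fold change was 0.70 (SE 0.17), a 1.63-fold difference (edgeR likelihood-ratio test, adjusted p = 0.00171), and the ratios were 0.60 in group 1 and 0.81 in group 2. Wnt4 passed the threshold in every tested alternative that kept experimental group in the model, with log2 fold changes of 0.67 to 0.74. Without the replicate block it was 0.69 with an edgeR adjusted p of 1, and it did not pass in that model with any single sample left out.

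The other ligands named for their unadjusted p did not pass. Wnt7b, known for its part in lung development, was at 30.7 and 38.0 CPM in the controls and 39.7 and 51.6 in the mutants. Both mutants were thus above both controls, mutant 1 by a narrow margin, and the log2 fold change was 0.41 (SE 0.19, edgeR adjusted p = 0.229). Wnt5a, the best known ligand of beta-catenin-independent signalling, was at 5.36 and 12.0 CPM in controls 1 and 2 and at 11.5 and 16.8 CPM in mutants 1 and 2. Control 2 and mutant 1 overlapped, and the log2 fold change was 0.79 (SE 0.38, edgeR adjusted p = 0.279), with ratios of 1.09 in group 1 and 0.48 in group 2. Wnt10a, a ligand of skin and tooth development, was at 4.15 and 1.14 CPM in controls 1 and 2 and 8.59 and 3.05 in mutants 1 and 2. Each mutant was above the control of its own group, although mutant 2 was below control 1, and the log2 fold change was 1.22 (SE 0.61, edgeR adjusted p = 0.302). The other 7 tested ligands (Wnt2b, Wnt3, Wnt3a, Wnt5b, Wnt6, Wnt9a and Wnt11) had log2 fold changes from -0.43 to 1.50 and edgeR adjusted p from 0.719 to 0.996. The highest of these, Wnt3, rested on 28, 1, 30 and 9 counts in control 1, control 2, mutant 1 and mutant 2. Over all 11 tested ligands the median log2 fold change was 0.41, with 10 positive values.

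None of the 9 tested Frizzled receptors passed the threshold for genotype, and 8 of the 9 log2 fold changes were positive. Fzd7, a receptor linked to stem cells in several epithelia, was at 73.9 and 79.2 CPM in controls 1 and 2 and at 91.8 and 105 CPM in mutants 1 and 2. Both mutants were above both controls, with a log2 fold change of 0.36 ± 0.17 (SE, adjusted p = 0.267 in edgeR). Fzd1 was at 45.1 and 51.0 CPM in the controls and 55.5 and 56.7 in the mutants, again without overlap, with a log2 fold change of 0.23 ± 0.17 (SE, adjusted p = 0.602 in edgeR). Fzd2 was at 24.5 and 13.1 CPM in the controls and 26.1 and 23.0 in the mutants, and its log2 fold change of 0.45 ± 0.28 (SE, adjusted p = 0.491 in edgeR) rested mainly on the low value of control 2. Fzd3 and Fzd6 act in planar cell polarity, Fzd3 also in axon guidance. Fzd6 was at 32.8 and 39.1 CPM in the controls and 36.7 and 56.0 in the mutants, with a log2 fold change of 0.34 ± 0.19 (SE, adjusted p = 0.401 in edgeR). Fzd3 was at 90.2 and 187 CPM in the controls and 81.3 and 147 in the mutants. It was the 1 tested receptor with a negative log2 fold change (-0.25, SE 0.19, edgeR adjusted p = 0.588), each mutant being below the control of its group. Fzd4, Fzd5, Fzd8 and Fzd10 had log2 fold changes from 0.16 to 0.32 and edgeR adjusted p from 0.655 to 0.944.

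The co-receptors did not pass either. Lrp5 was at 60.0 and 51.7 CPM in controls 1 and 2 and 52.2 and 66.1 in mutants 1 and 2, so that its samples overlapped and the log2 fold change was 0.08 (SE 0.19, edgeR adjusted p = 0.930). Lrp6 was at 84.0 and 143 CPM in the controls and 93.7 and 169 in the mutants, with a log2 fold change of 0.20 ± 0.18 (SE, adjusted p = 0.683 in edgeR). Its values paired by experimental group and not by genotype.

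Among secreted inhibitors, Sfrp1 was at 153 and 211 CPM in controls 1 and 2 and at 222 and 292 CPM in mutants 1 and 2. Both mutants were above both controls, mutant 1 only slightly above control 2, and the log2 fold change of 0.51 (SE 0.21) did not pass in edgeR (adjusted p = 0.163). It passed in DESeq2, where the log2 fold change was 0.52 (adjusted p = 0.00995). Dkk3 was at 66.9 and 79.8 CPM in the controls and 81.9 and 95.3 in the mutants, without overlap, and its log2 fold change was 0.27 (SE 0.16, edgeR adjusted p = 0.407). The other 5 tested inhibitors were far less abundant, with log2 fold changes from -1.78 for Sfrp4 to 1.11 for Dkk1 and edgeR adjusted p from 0.318 to 0.826. Sfrp4 had 100, 64 and 71 counts in control 1, control 2 and mutant 1 and 4 counts in mutant 2, so its value was set by mutant 2. Of the 7 tested inhibitors, 3 had positive and 4 negative values with a median of -0.42, and the 3 positive ones were Sfrp1, Dkk3 and Dkk1. Dkk1 passed the filter only through both mutants and Dkk2 only through both controls, so the filter largely set their signs. Dkk1, which binds the co-receptors, had 20, 12, 38 and 21 counts in control 1, control 2, mutant 1 and mutant 2.

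Axin2 lies on chr11:108920349-108950783 (GRCm38) and encodes a scaffold of the beta-catenin destruction complex. It was at 16.0 and 12.0 CPM in controls 1 and 2 and at 20.3 and 23.6 CPM in mutants 1 and 2. Both mutants were above both controls, with a log2 fold change of 0.66 ± 0.30 (SE, adjusted p = 0.233 in edgeR) and ratios of 0.34 in group 1 and 0.97 in group 2. Axin1, its constitutively expressed relative, was at 64.7 to 78.6 CPM with a log2 fold change of -0.01 ± 0.16 (SE, adjusted p = 0.995 in edgeR). The intervals were 0.07 to 1.24 for Axin2 and -0.33 to 0.32 for Axin1, and the difference between the genes was not tested.

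The ligases that remove Frizzled receptors from the surface did not pass. Znrf3 was at 23.2 and 23.1 CPM in the controls and 23.0 and 27.2 in the mutants (log2 fold change 0.11, SE 0.25, edgeR adjusted p = 0.919). Rnf43 was at 25.9 and 25.4 CPM in the controls and 24.8 and 35.2 in the mutants (0.20, SE 0.24, edgeR adjusted p = 0.789). In both genes mutant 2 was the high sample and the other samples lay together. The R-spondin Rspo1, which acts against these ligases, had 38, 8, 31 and 17 counts in control 1, control 2, mutant 1 and mutant 2. Its log2 fold change was 0.60 (SE 1.11, edgeR adjusted p = 0.896), with ratios of -0.27 in group 1 and 1.38 in group 2.

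All 4 Tcf/Lef factors were low and had positive log2 fold changes, with a median of 0.67 and none past the threshold. Lef1 was at 1.12 and 1.14 CPM in the controls and 2.30 and 1.76 in the mutants. The mutants were higher, but these values rest on 24 to 53 counts, and the log2 fold change was 0.83 (SE 0.94, edgeR adjusted p = 0.775). It was 0.59 and 0.24 after a background at the median or the pooled density was subtracted from mutant 1. Tcf7l1, which is best known as a repressor, was at 3.11 and 1.91 CPM in the controls and 3.21 and 3.39 in the mutants (0.43, SE 0.71, edgeR adjusted p = 0.871). Tcf7l2 was at 6.05 and 14.9 CPM in the controls and 9.80 and 18.6 in the mutants (0.50, SE 0.36, edgeR adjusted p = 0.568), and overlapped. Tcf7 had a log2 fold change of 0.94 ± 0.83 (SE, adjusted p = 0.687 in edgeR).

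A further 13 members stayed below the filter. They were Wnt1, Wnt2, Wnt7a, Wnt8a, Wnt8b, Wnt9b, Wnt10b, Wnt16, Fzd9, Dkk4, Rspo2, Rspo3 and Rspo4, with at most 34 counts, that of Fzd9 in mutant 1. Mutant 1 held the highest count in 10 of them. Both controls were at 0 counts for Wnt1, Wnt16, Dkk4 and Rspo4, and Wnt1 and Rspo4 had counts in mutant 1 alone, 14 and 17. At these depths Wnt1 and Rspo4 were not detectable in the other samples, which is not to say that they were absent. The median density of the 13 members in mutant 1 was 3.99 counts per kilobase of exon, compared with a median of 1.80 and a pooled density of 3.54 over the 3748 genes that were at 0 in the other 3 samples. The part of reads spread over the genome in these low values was not tested. With either density subtracted from mutant 1, Wnt4 still passed the threshold.

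Experimental groups were compared with each other to ask how far members varied apart from genotype. The secreted inhibitor Sfrp2 and the ligands Wnt3a, Wnt6, Wnt10a and Wnt4 were lower in group 2, and Fzd3, Lrp6 and Tcf7l2 were higher in it. These 3 higher and 5 lower members stood against 17.7% higher and 14.0% lower genes among all tested. Sfrp2 was at 19.7 and 3.05 CPM in controls 1 and 2 and at 8.59 and 4.13 CPM in mutants 1 and 2. Group 1 was above group 2 without overlap, with a log2 fold change of group 2 over group 1 of -1.88 (SE 0.49, edgeR adjusted p = 0.00168). Wnt3a, a ligand of the beta-catenin branch, was at 13.9 and 17.0 CPM in group 1 and 3.91 and 5.42 in group 2. Its group effect of -1.74 (SE 0.40, edgeR adjusted p = 0.000182) was far beyond its genotype value of 0.38 (SE 0.40). Wnt6 was at 13.0 and 8.93 CPM in group 1 and 2.95 and 4.74 in group 2, with a group effect of -1.52 (SE 0.49, edgeR adjusted p = 0.0119). For Wnt10a it was -1.67 (SE 0.61, edgeR adjusted p = 0.0255) and for Wnt4 -0.48 (SE 0.17, edgeR adjusted p = 0.0166), and both lost the call in DESeq2 (adjusted p = 0.0639 and 0.0716). Wnt10a also lost it in the quasi-likelihood test (edgeR adjusted p = 0.0529) and Wnt4 when genes of low counts were also tested (edgeR adjusted p = 0.0819). Sfrp1, at 0.43 (SE 0.21, edgeR adjusted p = 0.106), was called for experimental group in DESeq2 and the quasi-likelihood test. By the edgeR likelihood-ratio test Wnt4 was the 1 member called for both terms, and its experimental groups overlapped because mutant 2 was above control 1. In DESeq2 the 1 member called for both terms was Sfrp1.

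Fzd3 gave the smallest adjusted p of the 3 members that were higher in group 2, with values of 187 and 147 CPM in group 2 against 90.2 and 81.3 in group 1 (log2 fold change 0.95, SE 0.19, edgeR adjusted p = 6.03e-06). Lrp6 followed at 0.81 (SE 0.18, edgeR adjusted p = 8.36e-05) and Tcf7l2 at 1.11 (SE 0.36, edgeR adjusted p = 0.0101). All 3 were above group 1 in both samples of group 2. Markers of other cells and the share of multiply aligned reads moved with the experimental groups. Of 8 stromal markers, 5 were lower and 1 was higher in group 2, and their summed level was 998 and 644 CPM in group 1 and 301 and 498 in group 2, with no marker at 0 in all samples. The sums in group 2 rested largely on Dcn, the 1 higher stromal marker. Dcn was at 165 and 194 CPM in group 1 and 190 and 413 in group 2. Of 8 horizontal basal cell markers, 4 were lower and 2 higher in group 2. Mature neuron markers were lower in 9 of 11, with sums of 17900 and 9860 CPM in group 1 and 7940 and 2340 in group 2. Sustentacular cell markers were higher in 4 of 7, with sums of 6010 and 7850 CPM in group 1 and 10900 and 14400 in group 2. Leukocyte markers were lower in 4 and higher in 1 of 7 tested. Their sums of 441 and 223 CPM in group 1 and 724 and 645 in group 2 rested largely on Lyz2, the 1 higher marker. Lyz2 was at 223 and 154 CPM in group 1 and 693 and 584 in group 2. Ciliated cell markers were lower in 3 of 5 tested, with sums of 444 and 312 against 268 and 126 CPM. The part of these cell types and of multiply aligned reads in the group differences was not tested.

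**Figure D3:**
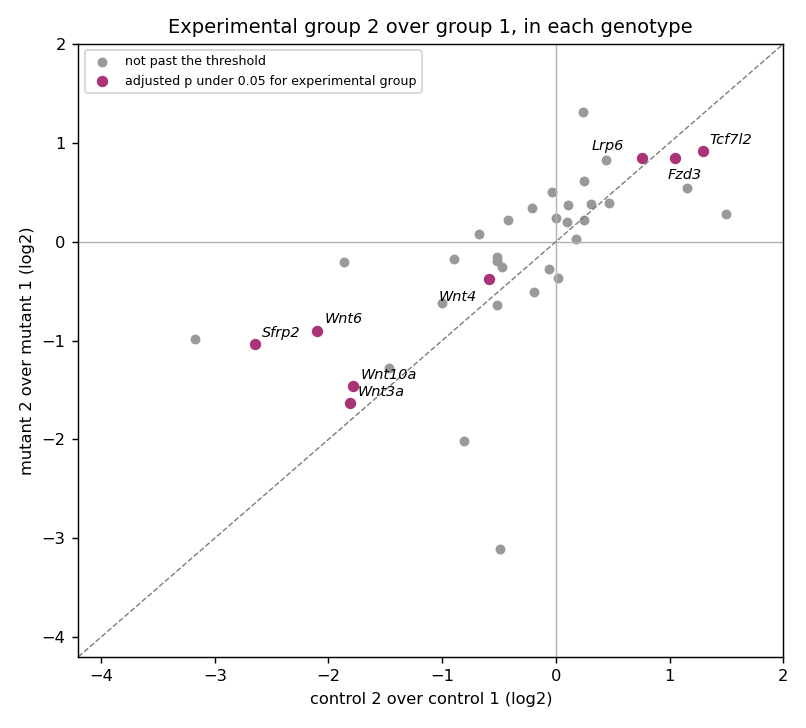
Log2 ratio of experimental group 2 over group 1 for each tested member, in controls (horizontal axis) and in mutants (vertical axis), with the line of equal ratios dashed and the 8 members past the threshold for experimental group in purple. Sfrp2, Wnt6, Wnt10a, Wnt3a and Wnt4 lie to the lower left, and Lrp6, Fzd3 and Tcf7l2 to the upper right.

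Other genes of the pathway were read from 4 lists, covering intracellular and nuclear components, ligand secretion and other surface proteins, planar polarity, and beta-catenin targets. Of 65 listed genes 61 were tested, with 0 higher and 2 lower in mutants at an edgeR adjusted p under 0.05. DESeq2 called 1 higher, the target Ccnd1, and 3 lower, these 2 and Tle3. At an unadjusted p under 0.05, 5 of the 61 were higher (8.20%) and 6 lower (9.84%), against 6.32% and 9.62% of all genes. The 2 lower genes were Pygo1, a nuclear co-factor of beta-catenin, and Apc2, a relative of the destruction complex scaffold Apc that is known from neurons. Pygo1 was at 60.0 and 40.5 CPM in the controls and 36.3 and 21.3 in the mutants. It fell in mutant cells, without overlap, by 0.82 on the log2 scale, with an SE of 0.19 and an adjusted p of 0.00108 in edgeR. Apc2 was at 89.4 and 64.3 CPM in the controls and 67.1 and 32.9 in the mutants. It fell by 0.68 on the log2 scale, with an SE of 0.19 and an adjusted p of 0.00844 in edgeR, although mutant 1 was above control 2. Neither passed without the replicate block. The median log2 fold change was -0.02 over 24 tested intracellular and nuclear genes, 0.20 over 16 secretion and surface genes, -0.13 over 10 planar polarity genes and 0.16 over 11 targets. Over all 61 it was 0.02, against -0.01 for all genes and 0.30 for the 38 members. The genes with an unadjusted p under 0.05 that did not pass were picked out after their values were seen. The 5 higher ones were the R-spondin receptor Lgr6 (log2 fold change 0.83, SE 0.28, edgeR adjusted p = 0.0628), the targets Tnfrsf19 (0.50), Ccnd1 (0.52) and Mycn (1.19), and the planar polarity gene Vangl2 (0.66), with edgeR adjusted p up to 0.306. The 4 lower ones were the planar polarity genes Celsr3 (log2 fold change -0.47, SE 0.18, edgeR adjusted p = 0.111) and Daam1 (-0.36), the kinase gene Gsk3a (-0.37) and the co-repressor gene Tle3 (-0.46), with edgeR adjusted p up to 0.254.

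Markers of the cell types in the sort also differed by genotype, and these values stand beside the change of Wnt4. Of 8 horizontal basal cell markers 2 rose in mutants, Krt15 and Egfr, 0 fell, and the median log2 fold change was 0.43. Krt15, a keratin of basal cells, was at 51.6 and 38.2 CPM in controls 1 and 2 and at 133 and 68.6 CPM in mutants 1 and 2. Both mutants were above both controls, as was so for 3 of the 8 markers. The 8 markers summed to 2440 and 1830 CPM in controls and 3430 and 2420 in mutants, so the genotypes overlapped. Of 8 globose basal cell and progenitor markers 4 rose (Kit, Hes6, Mki67 and Top2a) with a median of 0.78, and their sum was 299 and 274 CPM in controls and 442 and 498 in mutants. None of 7 sustentacular cell markers passed, with a median of 0.26. All 11 mature olfactory sensory neuron markers fell, with a median of -1.35, and their sum was 17900 and 7940 CPM in controls and 9860 and 2340 in mutants. These sums overlapped because mutant 1 was above control 2, and both mutants were below both controls in 4 of the 11 markers. Of 5 tested ciliated cell markers 3 fell, of 8 immature neuron markers 1, of 8 stromal markers 2 and of 7 ensheathing glia markers 1, and no marker of these lists was at 0 in all samples. Among all tested genes 1.28% rose and 4.30% fell past the threshold. Both mutants were above both controls in 12.6% of them and below in 13.3%. The part of the cell mixture in the values of Wnt4, of the other members and of Pygo1 and Apc2 was not tested.

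**Figure D4:**
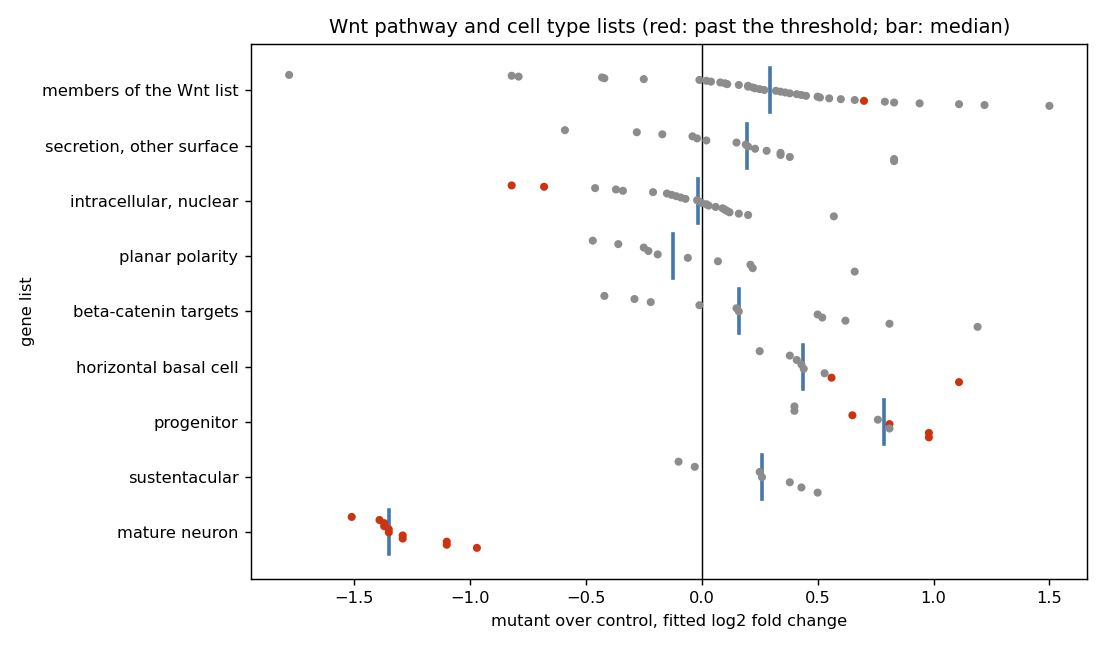
Fitted log2 fold change of mutant over control (horizontal axis) for each tested gene, in rows for the Wnt members, the 4 other pathway lists and 4 lists of cell type markers, with red points past the threshold and blue bars at each list's median. The members' median is 0.30 with 1 red point, the progenitor median is 0.78 with 4, and all 11 mature neuron markers are red at the left.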

How the data were processed

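Cells were sorted from 1 mouse per sample, ribosomal RNA was depleted, and 50 bp single-end reads were produced. The authors deposited raw counts of reads for each gene symbol. To make them, the authors removed ribosomal reads with Bowtie2 2.0.6, filtered reads by quality, aligned them to mm10 with TopHat 2.0.7 and counted with HTSeq in intersection-nonempty mode. Their gene annotation and strand setting are not given in the sources used here, so genes that overlap an annotated gene on the other strand (Wnt5a, Wnt7b, Wnt11, Fzd5, Fzd6, Sfrp2, Rspo3, Axin2, Lef1 and Tcf7l1, over 3.15% to 17.83% of their exon bases) may share reads with it. HTSeq sets multiply aligned reads aside. Its 5 tally lines per file were kept out of library sizes and tests.

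Genes above 1 CPM in at least 2 samples were fitted with edgeR 4.0.16 in R 4.3.3, with TMM factors and a negative binomial model of genotype and experimental group. Likelihood-ratio tests were adjusted by the Benjamini-Hochberg method over all 15438 genes at a threshold of 0.05. The model, test and filter follow the study's methods, but the study's counts still held the tally lines. With those lines kept, 13560 genes passed the filter, 32 of them members, and 185 were higher and 625 lower by genotype. Wnt4 was again the only member called. Standard errors are Wald errors. Ratios within an experimental group used a prior count of 2 and have no test. Exon lengths came from GENCODE vM21 (GRCm38), which matched 98.01% of symbols. Experimental groups pair littermates, as the series design states. The deviations of control 1 and mutant 1 from the mean of their genotype correlated across genes with r = 0.52.

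Members, gene lists and named genes were chosen with earlier results of these data known. Named were members past the threshold, members with an unadjusted p under 0.05, a fixed panel over the roles, and genes of the other lists past the threshold. Alternatives were the quasi-likelihood test, DESeq2 1.42.0, no replicate block, RLE factors, other filters, thinning to 14833396 reads, tally lines kept, a background subtracted from mutant 1, and samples left out.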

Additional observations from a re-analysis of the deposited data

Results flagged for a closer look

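In 3 members of the fixed panel, the log2 ratio of mutant over control had opposite signs in the experimental groups, and the difference was not tested. For Lrp5 the ratio was -0.20 in group 1 and 0.35 in group 2. For Rnf43 it was -0.06 and 0.47, and for Znrf3 -0.01 and 0.23. Each ratio rests on 1 mutant and 1 control, and the fitted change of none of the 3 passed the threshold. Of all 38 tested members, 10 had ratios of opposite sign, as had 5756 of all 15438 tested genes, a larger share.

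Outside the gene counts, mutant 1 had 39.4% of its uniquely aligned reads outside annotated genes, above the 23.8% of control 1 and the 24.9% of control 2.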

How the results depend on the processing

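With 2 samples per genotype, calls rest on the replicate block that pairs littermates. The 1 member higher by genotype became 2 in DESeq2 (Sfrp1 and Wnt4) and 0 without the replicate block, where 6 genes in all were higher and 0 lower. It was 0 to 0 with each single sample left out of the model without the block, which assumes that a lone sample varies like the other genotype. With single samples left out, Wnt4 had log2 fold changes of 0.47 to 1.01 and did not pass. Members lower in experimental group 2 numbered 5, and 3 in DESeq2. Other pathway genes higher by genotype numbered 0, but 1 in DESeq2 and with a CPM above 1 in all 4 samples (Ccnd1 in both) and 1 after either background subtraction (Tnfrsf19). Those lower numbered 2, but 1 in the quasi-likelihood test (Pygo1), 3 in DESeq2 (with Tle3) and 0 without the block.

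Signs reversed only in the unblocked model with a sample left out, among members that did not pass. Fzd3 became 0.38 without control 2 and 0.08 without mutant 1. Lrp5 became -0.07 and Rnf43 -0.02 without mutant 2. Lrp6 became -0.12 without control 1 and -0.25 without mutant 2, and Tcf7l2 -0.07 in both cases. The cause was not tested. In the remaining alternatives the named members kept their sign, except that ratios within experimental group 1 were negative for Lrp5 and Rnf43 at -0.20 and -0.06, and for Znrf3 at -0.01. Leaving out experimental group 1 or 2 moved Axin2 to 0.97 or 0.34 and Fzd2 to 0.81 or 0.09. Testing without a filter on low counts shifted the median of all genes to 0.14 and that of all 51 members to 0.43. The longest transcript in place of all exons moved 9 of 38 levels by more than their SD, and their median from 2.47 to 2.73 RPKM. Members under about 50 counts had standard errors near 1 on the log2 scale, so that only large changes could be called.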
